A study of Mus musculus with 12 samples.

Results

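Fos, Fosb, Fosl1, Fosl2, Jun, Junb, Jund, Atf3, Maff and Mafk encode transcription factors of the basic leucine zipper (bZIP) class that react to stress, and their transcript levels were followed through an acute iron challenge and a glucocorticoid in mouse liver. The 10 genes were taken by symbol, through their Ensembl identifiers, from the 55414 genes of a bulk RNAseq count table, and all 10 passed the filter on low counts that left 13857 genes for testing. Livers came from 12 female C57BL/6J mice, aged 8 to 12 weeks, in 4 groups of 3. Each mouse received an intraperitoneal injection of 0.9% NaCl or of FeSO4 (iron sulfate, 300 mg/kg), and 6 h later PBS or dexamethasone (DEX, a synthetic glucocorticoid, 10 mg/kg). Livers were taken 2 h after the second and 8 h after the first injection, and the groups are called NaCl/PBS, NaCl/DEX, FeSO4/PBS and FeSO4/DEX. Every comparison with NaCl/PBS rests on the same 3 control mice.

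AP-1 is a dimer of bZIP proteins. A Fos protein (c-Fos, FosB, Fra-1 from Fosl1, Fra-2 from Fosl2) binds DNA only with a partner such as a Jun protein (c-Jun, JunB, JunD), whereas Jun proteins can also pair with each other or with ATF3, the product of a stress gene. MafF and MafK are small Maf proteins, which lack a transactivation domain and pair among others with NRF2 at antioxidant response elements (ARE). Most of these genes are immediate-early genes: their transcription starts within minutes of a signal through MAP kinases, their mRNAs are short-lived, and in liver they are known from partial hepatectomy, acute-phase responses and oxidative stress. Jund is an exception, with a steady level in resting tissue.

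The promoters of Jun, Junb and Maff, the 3 members called after DEX in NaCl mice, are shown first, with those of Fos and Atf3 beside them, as the 250 bases upstream of the transcription start in RefSeq (build GRCm38.p6). They are printed 5′ to 3′ on the strand of the gene, with capitals for CRE-type motifs on either strand. These were the octamer TGACNTCA, which includes the cyclic AMP response element (CRE) TGACGTCA, and the CRE core TGACG. For Maff, with 3 starts in the table, the start with the full CRE is given.
Fos, chr12:85473640-85473889, plus strand: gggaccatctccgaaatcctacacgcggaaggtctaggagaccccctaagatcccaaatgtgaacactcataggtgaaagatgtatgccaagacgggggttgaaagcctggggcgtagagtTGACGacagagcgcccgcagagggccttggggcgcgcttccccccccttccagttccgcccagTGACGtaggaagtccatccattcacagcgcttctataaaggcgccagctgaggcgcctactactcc
Jun, chr4:95052223-95052472, minus strand: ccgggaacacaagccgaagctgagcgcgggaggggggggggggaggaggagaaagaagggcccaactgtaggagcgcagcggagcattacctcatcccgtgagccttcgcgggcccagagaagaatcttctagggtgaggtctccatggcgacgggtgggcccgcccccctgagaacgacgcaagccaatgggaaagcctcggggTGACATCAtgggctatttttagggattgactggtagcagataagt
Junb, chr8:84978749-84978998, minus strand: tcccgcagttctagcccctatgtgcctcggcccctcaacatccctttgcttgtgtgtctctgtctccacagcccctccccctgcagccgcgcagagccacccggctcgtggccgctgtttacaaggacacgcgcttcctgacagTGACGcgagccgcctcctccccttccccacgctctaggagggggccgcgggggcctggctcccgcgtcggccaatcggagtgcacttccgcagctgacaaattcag
Atf3, chr1:191183334-191183583, minus strand: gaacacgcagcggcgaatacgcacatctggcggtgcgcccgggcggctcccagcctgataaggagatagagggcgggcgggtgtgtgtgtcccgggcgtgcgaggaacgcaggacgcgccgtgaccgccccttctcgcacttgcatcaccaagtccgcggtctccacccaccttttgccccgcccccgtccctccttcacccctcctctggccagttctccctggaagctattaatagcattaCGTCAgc
Maff, second start, chr15:79347270-79347519, plus strand: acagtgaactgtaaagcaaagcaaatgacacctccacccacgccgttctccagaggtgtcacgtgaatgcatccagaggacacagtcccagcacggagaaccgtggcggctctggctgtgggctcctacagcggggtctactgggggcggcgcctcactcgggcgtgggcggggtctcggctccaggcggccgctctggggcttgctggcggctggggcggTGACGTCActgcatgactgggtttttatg

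Of the 10 members 9 were matched in the promoter table, with 11 starts, and Fosl1 was not. TGACG stood in the upstream bases of 6 members, Fos, Fosb, Junb, Atf3, Maff and Mafk, and in 17.8% of all 32851 promoters searched. A member counted if any of its starts matched, while the background was counted per promoter. Starts of members with TGACG had 58.4% (Fos) to 68.8% (Fosb) GC, against a median of 52.4% over all promoters, and enrichment was not tested. The octamer TGACNTCA was found in 2 members and in 7.49% of all promoters. Jun carried it as TGACATCA, 45 bases before its start, and Maff carried the full CRE 29 bases before its second start. The classical AP-1 element TGACTCA, present in 4.46% of all promoters, was in none of the 9. The CCAAT box, in 33.8% of all promoters, was in Jun and Junb, and the ARE core TGACNNNGC, in 10.2%, was in both small Maf genes. The CArG box, the element bound by serum response factor, was in 1.47% of all promoters and in the searched bases of none of the 9. Bases farther upstream were not searched, so a CArG box there, in Fos or any other member, would have been missed. Fosl2 and Jund matched none of the motifs searched. The element bound by the glucocorticoid receptor was not among these motifs, and a link of any motif to the calls after DEX was not tested. All these motif results are matches of letters in a short window. The octamer and the CRE core were added to the search after the sequences had been seen.

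In mice without DEX, FeSO4 raised all 10 members. Each passed the test (edgeR FDR of 0.05 or less), where 27.2% of all tested genes were called higher and 27.3% lower, and in each member every FeSO4/PBS mouse lay above every NaCl/PBS mouse, which held for 29.0% of all genes, with 31.0% the other way round. The median log2 fold change (LFC) of the members was 2.87, against -0.02 over all genes. Values are normalized counts, that is counts scaled by TMM factors to the mean library size, and are listed for mice 1, 2 and 3 of each group. Any 2 mice of 1 group differed by more than sampling noise. Over all genes FeSO4/PBS mouse 1 stood apart from mice 2 and 3 of its group, with a chi-square per gene of 89.5 and 71.4, against 24 between those 2 and 18.3 to 37 between mice of the other groups. Without it all 10 members were still called higher.

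**Figure D1:**
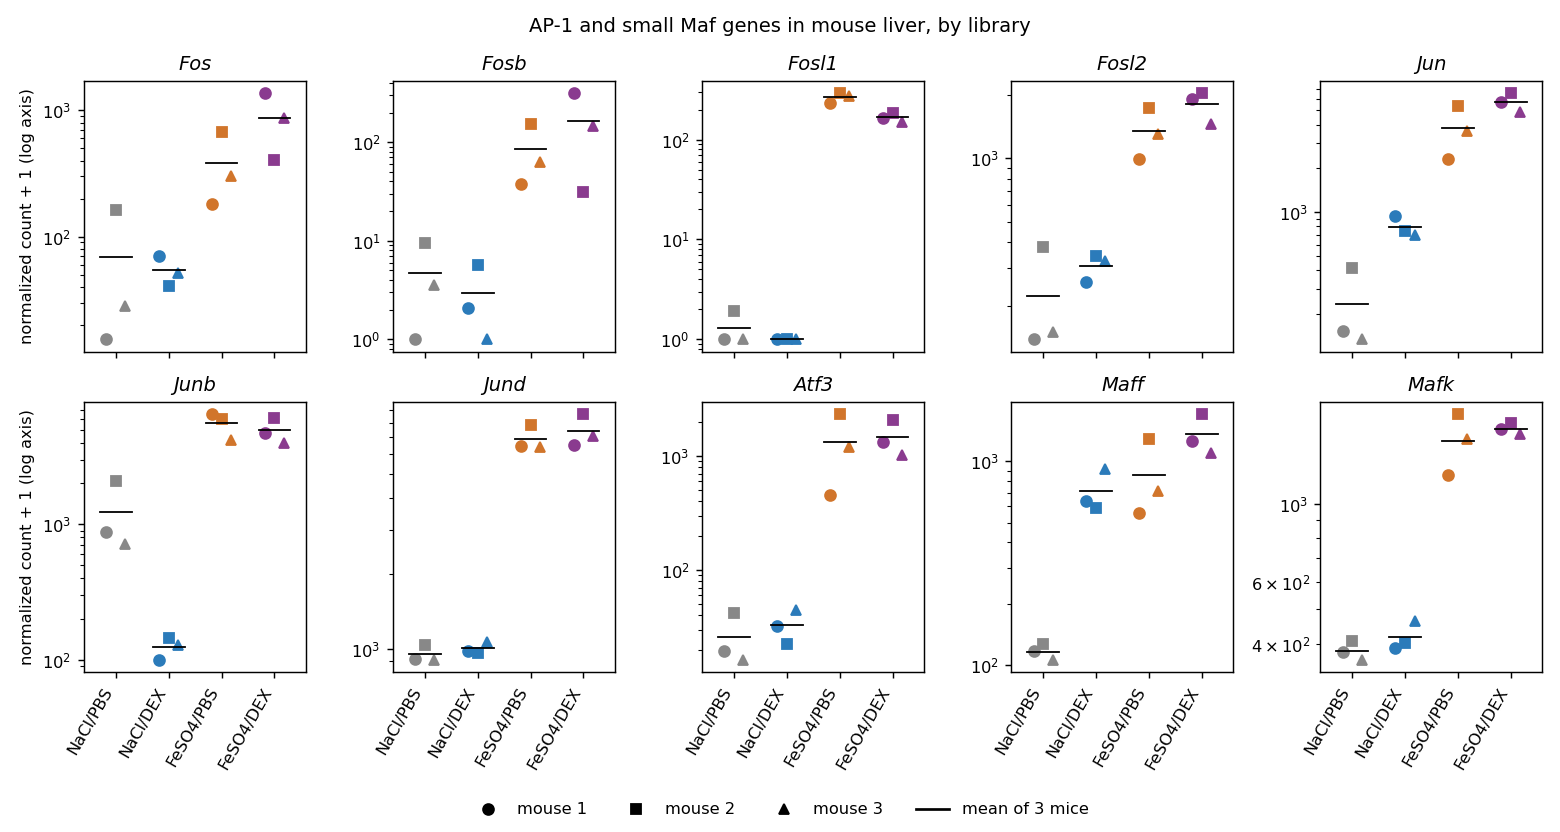
Normalized count plus 1 (log axis, own range per gene) of the 10 genes in each of the 12 libraries, with the symbol showing the mouse number and a line at the mean of 3 mice. FeSO4 mice lie above NaCl mice for the same second injection in all 10 genes, while Junb falls and Jun and Maff rise from NaCl/PBS to NaCl/DEX.

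In the Fos family the sharpest contrast was in Fosl1, whose product Fra-1 is a Fos protein without a transactivation domain. Fosl1 (ENSMUSG00000024912, chr19:5497575-5505974, plus strand) had 0, 1 and 0 reads in NaCl/PBS mice and 230, 285 and 212 in FeSO4/PBS mice. All 3 control livers were thus at or close to 0 and all 3 treated livers at 212 reads or more. The ratio of summed counts at equal effective library size was 959, with a 95% exact interval of 172 to 37945 that covers counting error only, and the edgeR FDR was 1.9e-08. The gene overlaps Ccdc85b on the opposite strand over 2767 bases of the gene spans, introns included. Ccdc85b had 70 to 304 reads per library. The library kit keeps the strand, but which strand column was deposited is not given in the sources used here, so reads of this pair may not be fully separated.

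Fos (ENSMUSG00000021250, chr12:85520658-85524047, plus strand) had 14.4, 162 and 27.1 normalized counts in NaCl/PBS and 179, 667 and 299.7 in FeSO4/PBS mice. Mouse 2 was far above the other 2 controls, and the lowest FeSO4/PBS value was only just higher. The LFC was 2.54 (SE 0.70, edgeR FDR 0.0070), and it was 4.22 when NaCl/PBS mouse 2 was left out and 1.86 when FeSO4/PBS mouse 2 was (edgeR FDR 0.040). Fosb, which encodes another activating Fos protein, had 0, 8.42 and 2.54 and 36.3, 153 and 62.5 normalized counts in the same groups. The controls were close to the detection limit, with 12 reads in all. Its LFC was 4.60 (SE 0.99, edgeR FDR 0.0014), and leaving out mouse 2 gave 6.02 for the NaCl/PBS and 3.82 for the FeSO4/PBS mouse. Fosl2, coding for Fra-2, rose from 137, 379 and 149 to 993, 1735 and 1298, with an LFC of 2.61 (SE 0.33, edgeR FDR 1.7e-05) and of 3.23 without NaCl/PBS mouse 2.

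Among the Jun genes the largest change after FeSO4 was in Jun, the gene of c-Jun. Jun (ENSMUSG00000052684, chr4:94937271-94940459, minus strand) had 152, 415 and 134 normalized counts in NaCl/PBS mice and 2334, 5337 and 3632 in FeSO4/PBS mice. The lowest treated liver stood several-fold above the highest control. The LFC was 4.02 (SE 0.40, edgeR FDR 2.2e-06), a 16.2-fold rise, and 4.72 without NaCl/PBS mouse 2. The antisense RNA Junos spans the whole of Jun and had at most 9 reads in any library. Jund, whose product is the Jun protein of resting cells, had 916, 1043 and 905 and 6447, 7829 and 6409.8 normalized counts. The groups were tight and far apart, and the LFC of 2.85 (SE 0.14, edgeR FDR 7.4e-09) stayed between 2.75 and 2.92 with any 1 mouse left out. Junb (ENSMUSG00000052837, chr8:85701113-85705359, minus strand) had 872, 2096 and 713 and 6488, 6004 and 4152 normalized counts. NaCl/PBS mouse 2 again was the highest control. The LFC was 2.18 (SE 0.33, edgeR FDR 9.0e-05), and 2.81 without that mouse. The gene span of Junb shares 1238 bases with that of Prdx2 on the opposite strand, which had 886 to 1746 reads per library, and the separation of their reads rests on the strand setting.

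Atf3, a gene induced by many kinds of cell stress, had the largest LFC among members with more than 3 reads in each library. Atf3 (ENSMUSG00000026628, chr1:190902493-190950241, minus strand) had 18.7, 41.1 and 15.2 normalized counts in NaCl/PBS mice and 452, 2318 and 1194 in FeSO4/PBS mice. The 3 treated livers differed among themselves 5.13-fold, with mouse 1 the lowest and mouse 2 the highest, yet all were above the controls. The LFC was 5.75 (SE 0.58, edgeR FDR 2.5e-06), a 53.7-fold rise, and 5.06 without FeSO4/PBS mouse 2. Of the small Maf genes, Maff (116, 126 and 105 and 559, 1286 and 710.4 normalized counts) had an LFC of 2.88 (SE 0.29, edgeR FDR 2.4e-06). Mafk (377, 407 and 358 and 1201, 1794 and 1528) had the smallest LFC of the 10, 1.99 (SE 0.14, edgeR FDR 1.0e-07), with little spread. The gene span of Mafk shares 905 bases with that of Tmem184a on the opposite strand, which had 38 to 418 reads per library.

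The spread between mice differed among the members. The biological coefficient of variation within groups was 0.701 for Fosb, 0.570 for Fos and 0.397 for Atf3, at or above the 94.5th percentile of all tested genes, whose median was 0.157. Jund (0.126) and Mafk (0.125) lay below that median. NaCl/PBS mouse 2 was the highest of its group in all 10 members, FeSO4/PBS mouse 2 in 9 and FeSO4/DEX mouse 2 in 8. The labels give no pairing of replicate numbers across groups. With 18528171 reads and a TMM factor of 1.14, NaCl/PBS mouse 2 was within the range of the other libraries (16335651 to 23827340 reads and factors from 0.87 to 1.16). The labels name no batch.

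The liver is a mixture of cells, and in bulk RNA fewer cells of a type cannot be told apart from less RNA per cell. Hepatocyte markers were abundant in every library, and 4 of 9 measured were called higher after FeSO4. Of 10 neutrophil markers 7 were tested and 6 were called higher, and their summed level was 122 to 299 normalized counts in NaCl/PBS and 814 to 970 in FeSO4/PBS mice. Ltf was at 0 in all NaCl/PBS mice. Of 10 macrophage markers 8 were called lower, with a summed level of 9812 to 11244 in NaCl/PBS and 5674 to 6650 in FeSO4/PBS mice. Of 10 endothelial markers 2 were called higher and 4 lower. Of 8 tested lymphocyte markers 2 were called lower. Over all tested genes 27.2% were called higher and 27.3% lower, so the endothelial and lymphocyte calls show no clear change of these cells. The part of any change in the mix of cells in the rise of the 10 genes was not tested.

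**Figure D2:**
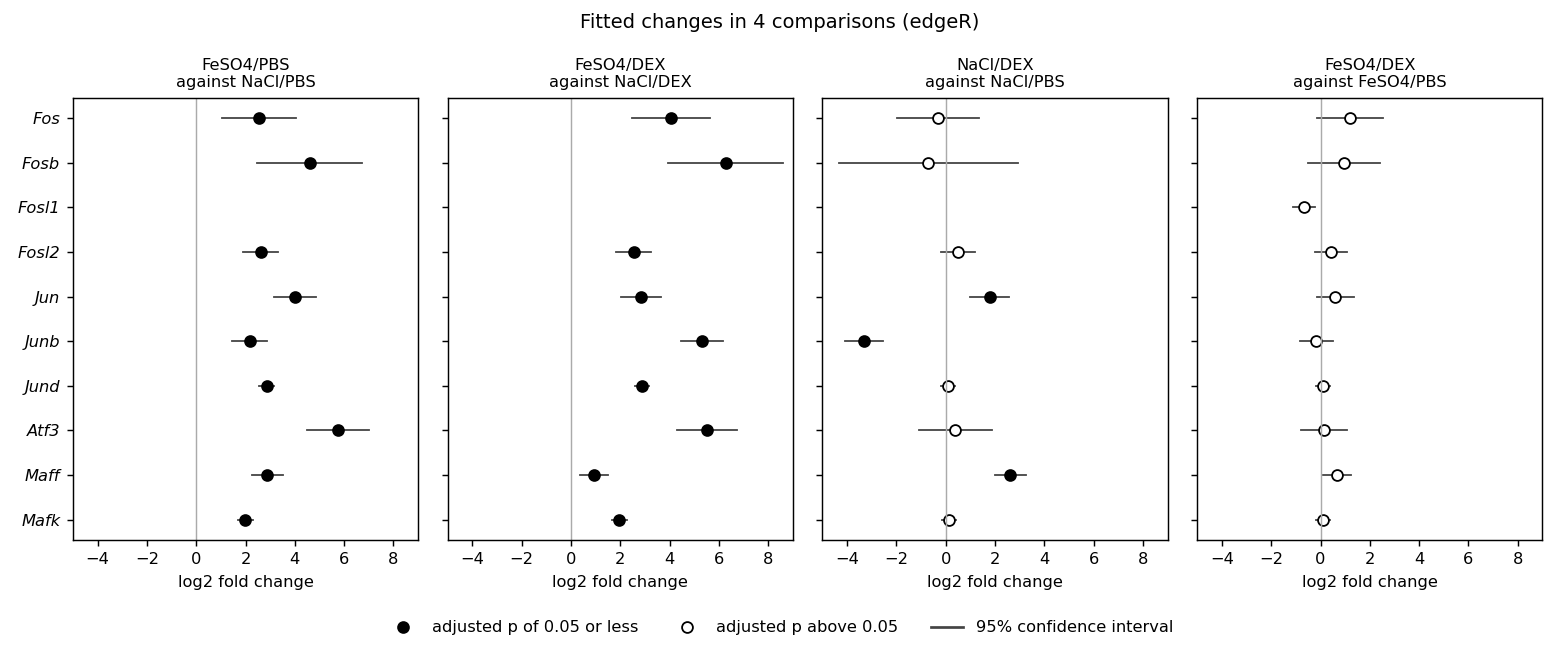
LFC (log2) of each gene in the 4 comparisons with its 95% confidence interval, filled where the edgeR FDR is 0.05 or less. All genes drawn are higher after FeSO4 with PBS and with DEX, 3 are called after DEX in NaCl mice and none after DEX in FeSO4 mice; Fosl1 is drawn only where both groups had reads in every library.

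In mice that had received NaCl, DEX for 2 h changed 3 of the 10 members: Jun and Maff rose and Junb fell. Over all genes 6.50% were called higher and 7.15% lower in this comparison, and every NaCl/DEX mouse lay above every NaCl/PBS mouse in 17.6% and below in 20.3%. The median LFC was 0.11 over the members and -0.02 over all genes. Junb fell from 872, 2096 and 713 normalized counts to 98.8, 144 and 128. The NaCl/DEX livers formed a tight group below the lowest control. The fold was 9.89, with an LFC of -3.31 (SE 0.36, edgeR FDR 4.1e-05), or -2.67 without NaCl/PBS mouse 2. Jun moved the opposite way, from 152, 415 and 134 to 950.0, 749 and 694 normalized counts. No NaCl/DEX mouse was as low as the highest control. The LFC was 1.78 (SE 0.37, edgeR FDR 0.0054), and 2.49 without NaCl/PBS mouse 2. Maff had 116, 126 and 105 normalized counts in NaCl/PBS and 639, 589 and 912 in NaCl/DEX mice. The lowest NaCl/DEX value (589) was far above the highest control (126), and the LFC was 2.62 (SE 0.29, edgeR FDR 4.0e-05).

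The other members gave no call after DEX in NaCl mice. Jund had an LFC of 0.079 with a 95% confidence interval of -0.20 to 0.36, and Mafk of 0.13 (-0.16 to 0.43). Both intervals are narrow. Fos had 69.8, 39.5 and 50.3 normalized counts in NaCl/DEX mice, and its LFC of -0.31 (interval -1.97 to 1.35) turned to 1.38 without NaCl/PBS mouse 2. Its groups overlapped, with that control above all DEX-treated mice. Fosl2 had 259, 342 and 325, with an LFC of 0.49 (edgeR FDR 0.37) that passed the test as 1.12 (edgeR FDR 0.0065) without the same mouse. Atf3 had 31.1, 21.6 and 43.3 (LFC 0.38, interval -1.10 to 1.86). Fosb had 1, 5 and 0 reads and an interval of -4.35 to 2.92, and Fosl1 had no read in any NaCl/DEX mouse, so that no fold is given. With at most 1 read in a control, a fall of Fosl1 was not detectable at this depth, and the interval of Fosb covers both falls and rises. Neutrophil markers summed to 86.6 to 125 normalized counts in NaCl/DEX mice, with Ly6g, Ngp and Camp at 0 in all of them. Of 7 tested 1 was called lower, where 7.15% of all genes were, and none of the 10 macrophage markers was called.

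In mice that had received FeSO4, no member passed the test after DEX. This was so for every tested gene (0% higher and 0% lower by edgeR), with 444 genes higher and 456 lower at an unadjusted p under 0.05, among them 2 members. DESeq2 called 5 genes higher and 5 lower, none of them a member. Fosl1 had 232, 289.9 and 270.4 normalized counts in FeSO4/PBS and 165, 185 and 149.8 in FeSO4/DEX mice. Every DEX-treated liver was below every other one, as in 4.85% of all genes (4.45% lay above). The LFC was -0.66 (95% interval -1.10 to -0.23, unadjusted edgeR p 0.0061, FDR 0.71). Maff had 1257, 1701 and 1097 normalized counts in FeSO4/DEX mice, an LFC of 0.66 (interval 0.11 to 1.22, unadjusted edgeR p 0.023, FDR 0.73), and its groups overlapped. Without FeSO4/PBS mouse 1 no member passed either, and the LFC of Maff was 0.41.

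Fos reached 1362, 399.6 and 861 normalized counts in FeSO4/DEX mice, a mean of 874 ± 481 (SD, n = 3) against 382 ± 254 (SD, n = 3) in FeSO4/PBS mice. Its LFC of 1.20 had an interval of -0.14 to 2.53 and did not pass (edgeR FDR 0.76). It was 1.88 without FeSO4/PBS mouse 2 and 0.72 without FeSO4/DEX mouse 1, and passed in neither case. FeSO4/DEX mouse 2 was the lowest in Fos and Fosb although it was the highest in the other 8 members. Fosb had 312, 29.9 and 144, with an interval of -0.50 to 2.43. Jun had 5681, 6553 and 4863 (LFC 0.60, interval -0.15 to 1.35) and Junb 4744, 6044 and 3975 (LFC -0.17, interval -0.85 to 0.51). A fall of Junb as in NaCl mice, by 9.89-fold, lies outside that interval. Fosl2 had 1907, 2031 and 1457 (interval -0.23 to 1.07) and Atf3 1312, 2058 and 1020.2 (interval -0.78 to 1.07). Jund had 6491, 8644 and 7103 normalized counts and Mafk 1624, 1696 and 1573, with intervals of -0.17 to 0.38 and -0.17 to 0.40.

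The difference between the DEX responses of FeSO4 and NaCl mice was tested directly. It passed for 2 of the 10 members, where 2.99% of all genes had a higher and 3.20% a lower response in FeSO4 mice. For Junb the response was -3.31 in NaCl and -0.17 in FeSO4 mice, a difference of 3.13 (SE 0.48, edgeR FDR 0.0015) on the log2 scale, and 2.49 without NaCl/PBS mouse 2. For Maff it was 2.62 and 0.66, a difference of -1.96 (SE 0.38, edgeR FDR 0.0078). Both still passed without FeSO4/PBS mouse 1, at 3.22 and -2.23. For Jun the responses were 1.78 and 0.60, and the difference of -1.18 (interval -2.27 to -0.099) did not pass (edgeR FDR 0.20), though it passed without NaCl/PBS mouse 2, at -1.90 (edgeR FDR 0.0088). For Fos the difference was 1.50 with an interval of -0.62 to 3.63. It was 0.025 (-0.36 to 0.41) for Jund and -0.022 (-0.43 to 0.39) for Mafk, and wider intervals were seen for Fosb (-2.28 to 5.63), Fosl2 (-1.01 to 0.88) and Atf3 (-1.97 to 1.50).

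The FeSO4 effect in DEX-treated mice was again a rise in all 10 members, against 22.4% of all genes called higher and 20.9% lower. Groups did not overlap for any of the 10, as for 28.8% of all genes upward and 27.1% downward. The median LFC was 3.46, also with Fosl1 at its bound, and 0.01 over all genes. Junb, which DEX had lowered in NaCl mice, had 98.8, 144 and 128 normalized counts in NaCl/DEX and 4744, 6044 and 3975 in FeSO4/DEX mice, an LFC of 5.31 (SE 0.39, edgeR FDR 2.7e-07). Maff, already raised by DEX alone, had 639, 589 and 912 and 1257, 1701 and 1097. These groups stood close, with 912 as the highest NaCl/DEX value and 1097 as the lowest FeSO4/DEX value. The LFC of 0.92 (SE 0.26, edgeR FDR 0.011) did not pass without NaCl/DEX mouse 2 (0.80, edgeR FDR 0.051) or without FeSO4/DEX mouse 2 (0.69, edgeR FDR 0.072).

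Fosl1 was at least 55.2-fold higher in FeSO4/DEX than in NaCl/DEX mice, computed against a floor of 3 counts per library since all 3 NaCl/DEX livers were at 0. Jun had an LFC of 2.84 (SE 0.37, edgeR FDR 4.1e-05), Fos of 4.05 (SE 0.73, edgeR FDR 5.4e-04) and Fosl2 of 2.54 (SE 0.32, edgeR FDR 3.0e-05). Fosb had 6.27 (SE 1.08, edgeR FDR 3.6e-04), which was 7.99 without NaCl/DEX mouse 2 and 5.37 without FeSO4/DEX mouse 1. Atf3 (5.51), Jund (2.88) and Mafk (1.96) had LFCs close to those without DEX. All 7 tested neutrophil markers were called higher in this comparison and 6 of 10 macrophage markers lower, against 22.4% and 20.9% of all genes. Their part in these rises was not tested.

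The 10 genes can be ordered by level when counts are divided by the length of their exons. In NaCl/PBS mice the mean normalized counts per kilobase were 572.5 ± 46.0 (SD, n = 3) for Jund and 515 ± 318 (SD, n = 3) for Junb, which did not differ beyond their spread. Jun (73.2) and Mafk (67.7) followed, then Maff (36.3), Fos (28.7) and Fosl2 (21.3), and among these the spread of Jun and Fos covered their neighbours. Atf3 (10.3), Fosb (0.585) and Fosl1 (0.153) were lowest. In FeSO4/PBS mice Jund (4136), Junb (2330.2) and Jun (1181) led per kilobase, ahead of Atf3 (541), Mafk (268) and Maff (267), with Fos (162), Fosl1 (129.9) and Fosl2 (129) close together and Fosb (13.4) lowest. Atf3 thus moved from below the small Maf genes to above them, with a spread of 385 (SD, n = 3) that still covered both.

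**Figure D3:**
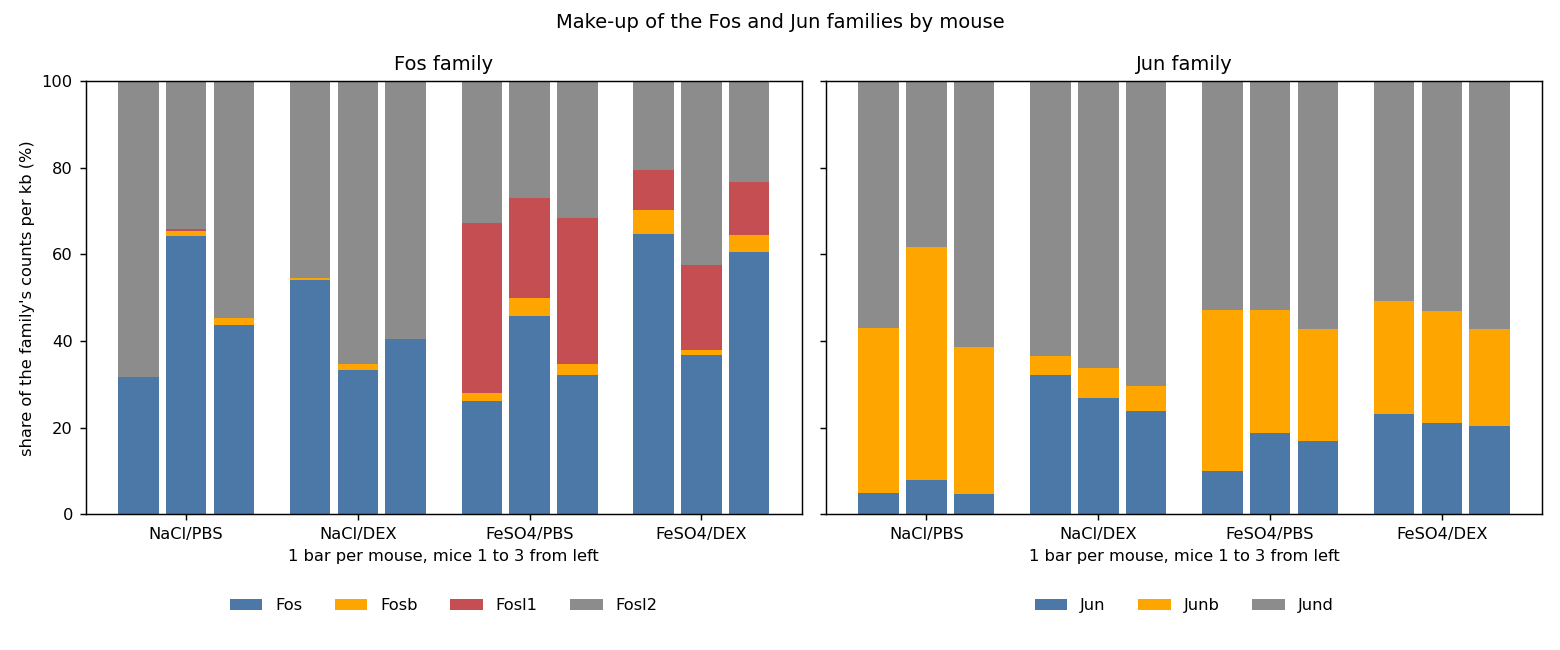
Share of each gene in the summed normalized counts per kilobase (%) of the Fos family (left) and of the Jun family (right), 1 bar per mouse. Fosl1 is visible almost only in FeSO4 mice, and Junb shrinks to between 4.46% and 6.89% in the NaCl/DEX mice.

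Since Fos and Jun proteins share partners, the make-up of each family was compared per length. The summed level of the Fos family was 50.8 ± 48.7 normalized counts per kilobase (SD, n = 3) in NaCl/PBS and 434 ± 166 (SD, n = 3) in FeSO4/PBS mice, and with DEX it was 52.6 ± 2.11 after NaCl and 652 ± 220 after FeSO4. That of the Jun family was 1161 ± 413 and 7648 ± 1117 without DEX, and 907 ± 27.3 and 8301 ± 1284 with it. Transcripts of Jun genes thus outweighed those of Fos genes in every group. Fosl1 took 0.144% ± 0.249 of the Fos family in NaCl/PBS and 32.0% ± 8.14 in FeSO4/PBS mice (SD, n = 3), and with DEX 0% after NaCl and 13.7% ± 5.46 after FeSO4. Fosl2 went from 52.4% ± 17.3 to 30.5% ± 3.02 with FeSO4 without DEX and from 56.8% ± 10.1 to 28.7% ± 11.9 with it. Fos took between 34.7% and 54.1% of its family in the 4 groups and Fosb at most 3.49%.

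In the Jun family, Junb held 41.9% ± 10.5 in NaCl/PBS mice and 5.74% ± 1.22 in NaCl/DEX mice (SD, n = 3). Jun held 5.88% ± 1.80 and 27.6% ± 4.18, and Jun was below Junb in all 3 NaCl/PBS mice and above it in all 3 NaCl/DEX mice. In NaCl/PBS mouse 2 Junb (53.8%) also exceeded Jund (38.2%). In FeSO4/PBS mice Junb held 30.5% ± 5.94 and Jun 15.2% ± 4.65, and in FeSO4/DEX mice 24.8% ± 2.07 and 21.6% ± 1.47. Jund held 52.2% ± 12.3 in NaCl/PBS and 54.3% ± 2.51 in FeSO4/PBS mice, and with DEX 66.7% ± 3.45 after NaCl and 53.7% ± 3.23 after FeSO4. With 3 mice against 3, a two-sided exact permutation test cannot go below p = 0.1. Of the 28 comparisons of shares 14 reached that value, and adjusted over the 28 it became 0.2, so no shift of shares could be called by this test. The shift of Junb after DEX was 36.2 percentage points, and the lowest NaCl/PBS mouse (33.9%) stood far above the highest NaCl/DEX mouse (6.89%).

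Other genes around AP-1 were read from lists that hold none of the 10 members. Over all tested genes 27.2% were called higher and 27.3% lower after FeSO4, and 6.50% and 7.15% after DEX in NaCl mice. Of 30 other bZIP genes 29 were tested, and after FeSO4 11 were called higher and 10 lower, with a median LFC of -0.07. Calls in this list went in both directions. The largest rises were in Cebpd (3.63) and Cebpb (2.08), genes of C/EBP factors of the acute phase, in Bach2 (2.56), which encodes a repressor that pairs with small Maf proteins, and in Jdp2 (2.17), coding for a Jun dimerization partner. The largest falls were in Nfe2 (-2.67), Batf2 (-2.13), Nfe2l1 (-1.19) and Atf6b (-1.08). Nfe2 and Batf2 were at only 36.7 and 12.8 normalized counts in NaCl/PBS mice. After DEX in NaCl mice 5 were called higher and 3 lower (median LFC 0.09). Bach2 (1.99 (SE 0.40, edgeR FDR 0.0043)) was among the rises, and Nfe2l2 (-0.73), the gene of NRF2, and Cebpa (-0.54) led the falls.

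Among 33 genes of MAP kinases and other immediate-early inputs to AP-1, all tested, 19 were called higher and 4 lower after FeSO4 (median LFC 0.53). The GADD45 genes, whose proteins bind the kinase MEKK4 upstream of p38 and JNK, were 3 of the 4 largest rises. Gadd45b went from 57.9 ± 22.9 to 1604 ± 1101 normalized counts (SD, n = 3; LFC 4.80 (SE 0.53, edgeR FDR 5.5e-06)). Gadd45a had an LFC of 3.94 (SE 0.29, edgeR FDR 1.7e-07) and Gadd45g of 3.76 (SE 0.61, edgeR FDR 1.5e-04), and the kinase gene Map3k6 of 4.17 (SE 0.34, edgeR FDR 4.2e-07). The falls included Elk3 (-2.26), a ternary complex factor, Map2k6 (-1.54), an activator of p38, and Mapk3 (-0.51), which encodes an ERK kinase. After DEX in NaCl mice 8 were called higher and 3 lower (median LFC 0.12). Gadd45b (4.34 (SE 0.52, edgeR FDR 8.2e-05)) and Gadd45g (3.44 (SE 0.60, edgeR FDR 0.0014)) rose, while Gadd45a (-1.63 (SE 0.33, edgeR FDR 0.0042)) and Elk3 (-1.46 (SE 0.19, edgeR FDR 1.8e-04)) fell. The GADD45 genes thus moved in the same direction after FeSO4 and in opposite directions after DEX.

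**Figure D4:**
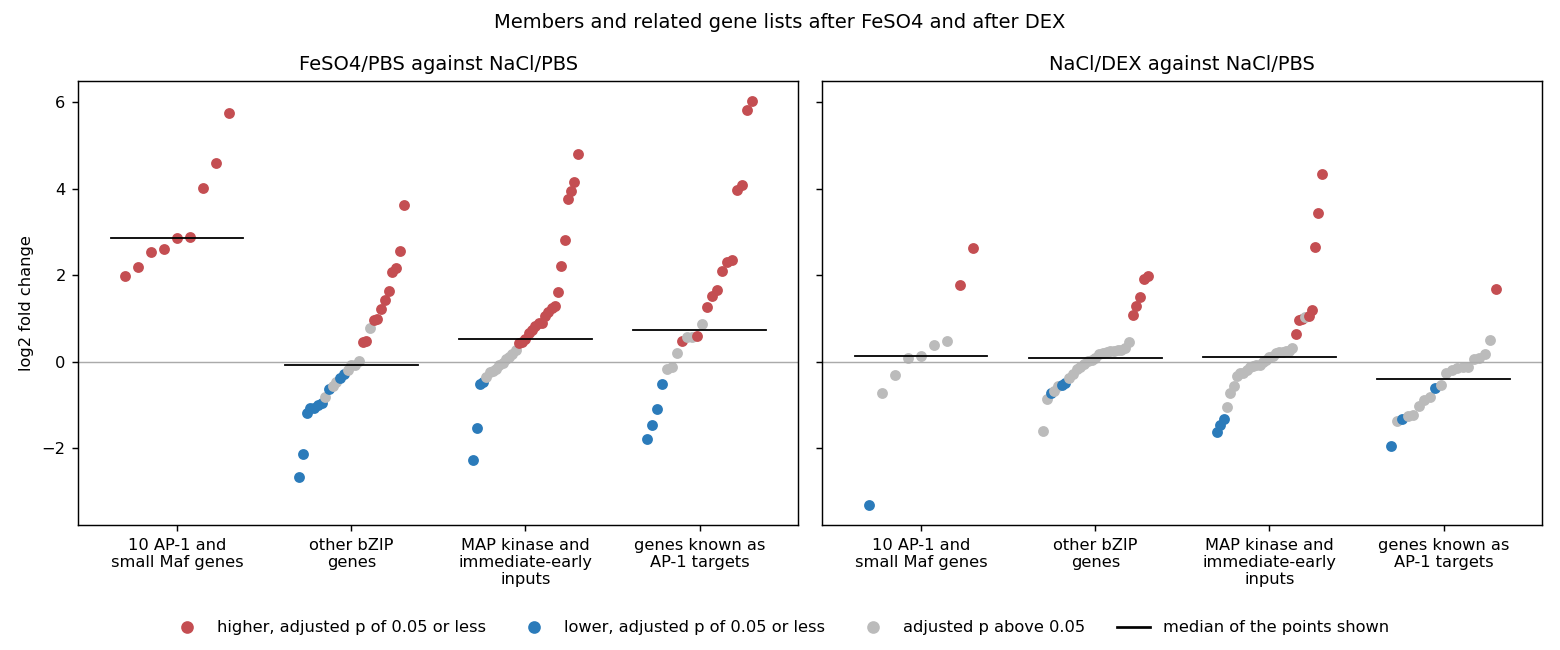
LFC (log2) of each tested gene of the 10 AP-1 and small Maf genes and of 3 lists, sorted within each list, after FeSO4 (left) and after DEX in NaCl mice (right), red and blue where called and with a line at the median of the points shown. Those of the 10 genes that are drawn are all above 0 after FeSO4, while the lists spread to both sides. Genes whose fold could not be fitted soundly (Fosl1 and Lif on both sides, Ccl2 and Cxcl2 on the right) are left out.

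Of 30 genes known as AP-1 targets 23 were tested, and after FeSO4 13 were called higher and 4 lower (median LFC 0.87). Over all tested genes 27.2% were called higher and 27.3% lower. The list includes the antioxidant genes Hmox1, Nqo1, Txnrd1, Gclc and Gclm, and which factor acted on any target was not tested. Hmox1, the gene of heme oxygenase-1, had 563 ± 199 normalized counts in NaCl/PBS and 36551 ± 5955 in FeSO4/PBS mice (SD, n = 3; LFC 6.02 (SE 0.26, edgeR FDR 3.3e-09)). Sphk1, a sphingosine kinase, had an LFC of 5.81 (SE 0.28, edgeR FDR 7.4e-09) and the chemokine gene Cxcl2 of 4.08 (SE 0.73, edgeR FDR 5.6e-04). The cytokine gene Lif had 2 reads in all NaCl/PBS mice together and 57 in FeSO4/PBS mice, a ratio of 37.6 with an exact counting interval of 9.94 to 318. The falls were Ccnd1 (-1.79), the gene of cyclin D1, Plau (-1.46), Cd44 (-1.10) and Vegfa (-0.53). The interstitial collagenase and stromelysin genes Mmp13, Mmp3 and Mmp10 were among the 7 targets with too few reads to test, with Areg, Il6, Il11 and Ptgs2. After DEX in NaCl mice 1 target was called higher, Sphk1 (1.69 (SE 0.36, edgeR FDR 0.0058)), and 4 lower, with a median LFC of -0.62. The chemokine gene Ccl2 had 118 reads in NaCl/PBS mice, 12 to 91 each, and 1 read in all NaCl/DEX mice together. The ratio was 96.8, with an exact counting interval of 17.0 to 3857. This interval and that of Lif cover counting error only and leave out the spread between mice. F3, coding for tissue factor, had an LFC of -1.96 (SE 0.33, edgeR FDR 0.0013). Comparison after DEX in FeSO4 mice gave no call in any of the 3 lists.

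Genes with the most similar pattern were sought for the 4 members with the largest fitted rise, by Pearson correlation of log2 CPM over the 12 libraries. For Fosl1 these were Nudt4, Tomm20 and Hmox1 (r from 0.994 to 0.996), for Atf3 Mafk, Ccnl1 and Cast (0.987 to 0.994), for Fosb Spats2, Ndfip2 and Ccrl2 (0.966 to 0.980) and for Jun Tiparp, Gmeb1 and Zfp36 (0.988 to 0.989). The 12 points share their 4 groups and the large FeSO4 difference between them, so these values only describe the pattern. Atf3 and Mafk, whose patterns were alike, had unequal sizes of change (53.7-fold and 3.96-fold after FeSO4).

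Scaling matters for the size of these changes. With library size alone in place of TMM factors, the median LFC of all genes after FeSO4 was -0.34, with 2285 genes called higher and 5829 lower instead of 3770 and 3783. All 10 members were still called higher. Positions were taken from GENCODE vM39 (GRCm39). With 3 mice a group the number of mice limits the precision. The labels name no litters or cages. The p-values set group differences against the spread between these mice, moderated over genes, and cover no further source of variation.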

How the data were processed

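Liver RNA of 12 mice was made into stranded mRNA libraries and sequenced single-end. The authors checked read quality (FastQC), aligned to mm39 by STAR 2.7.10b in GeneCounts mode, used DESeq2 for their own tests and deposited raw counts per Ensembl gene, without normalization, which are the values used here. The genome-wide totals were 16335651 to 23827340 reads per library.

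All 12 libraries entered 1 edgeR 4.0.16 quasi-likelihood model (R 4.3.3, limma 3.58.1) of 4 group means, on genes kept by filterByExpr and with TMM scaling, and p-values were adjusted by Benjamini-Hochberg over all 13857 genes tested (edgeR FDR, call at 0.05 or less). LFCs used a prior count of 0.125. Each SE was the size of the LFC divided by the square root of the edgeR F statistic. Intervals of LFCs were built from these SEs with t quantiles, and both are approximate, above all at low counts. Shares per length used union exon length and two-sided exact permutation tests over mice, for 7 genes in 4 comparisons, of which those between FeSO4/DEX and another group were added to the design. Groups came from the sample labels. Symbols and positions came from GENCODE vM39 and promoters from RefSeq. The script for the model was tested on simulated counts. Figures used Python 3.11.15 and matplotlib 3.10.9.

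The members and lists were chosen with earlier results of these data known. Named from each list were at most 4 genes called each way by FeSO4 and 2 each way by DEX in NaCl mice, by size of LFC, and some of these are not reported here. Genes too low to test (named with their list), markers at 0 and genes overlapping a member were picked once their values were known. Alternatives were DESeq2 1.42.0, its size factors, library size alone, no filter, a replicate block, the libraries of a comparison alone, a minimum LFC of 1 and each mouse left out. The labels give no pairing of mice, and numbers were not used as pairs. Deviations of same-number mice had r from -0.161 to 0.22, but different-number mice were not compared, so this cannot settle pairing. The marker lists of cholangiocytes, stellate and mesothelial cells were also counted: after FeSO4 1, 2 and 0 genes were called higher and 2, 1 and 1 lower. The shares over all tested genes were 27.2% higher and 27.3% lower.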

Additional observations from a re-analysis of the deposited data

Results flagged for a closer look

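The DEX response of Junb differed between FeSO4 and NaCl mice by 3.13 on the log2 scale (SE 0.48, edgeR FDR 0.0015), with NaCl/DEX mice at 98.8, 144 and 128 normalized counts and FeSO4/DEX mice at 4744, 6044 and 3975. All 3 NaCl/DEX mice lay below all 3 NaCl/PBS mice, while the FeSO4/DEX and FeSO4/PBS mice overlapped. The DEX response of Maff differed in the other direction, by -1.96 (SE 0.38, edgeR FDR 0.0078), with all 3 NaCl/DEX mice above all 3 NaCl/PBS mice and overlapping groups in FeSO4 mice. Both were singled out because the difference between the responses itself passed the test. No group had more than 3 mice, so single mice were not tested as outliers.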

How the results depend on the processing

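All 10 members were called higher after FeSO4 without DEX in every alternative run, and Junb, Jun and Maff kept their calls after DEX in NaCl mice in each. With DEX, FeSO4 gave 9 to 10 members when 1 mouse was left out, Maff being the exception. A minimum LFC of 1 also left 9 members there, since Maff had an LFC of 0.92. Leaving out 1 mouse gave 2 to 3 members higher after DEX in NaCl mice and 1 to 2 members with a lower DEX response in FeSO4 than in NaCl mice. Without the filter on low counts, 3 members (Fos, Jun and Maff) were called higher after DEX in FeSO4 mice and 2 members each had a higher or lower response difference. That fit covered 25013 genes and gave every gene 200104 degrees of freedom instead of a median of 13.9. Each gene's own spread thus carried almost no weight in it.

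The replicate block left all counts of members as they were (10, 10, 2 higher and 1 lower, 0, and 1 in each direction), and the labels give no pairing. With library size alone the LFC after DEX in NaCl mice was -0.074 for Jund and -0.019 for Mafk, and the response difference was 0.047 for Fosl2 and 0.098 for Mafk. For Jund that difference was -0.016 with DESeq2 and -0.016 with its size factors. None of these was called. Direction also turned with 1 mouse left out for some uncalled values, with ranges of -0.81 to 1.38 (Fos) and -2.43 to 0.72 (Fosb) after DEX in NaCl mice, -0.037 to 0.20 (Jund), -0.29 to 0.83 (Atf3) and -0.048 to 0.26 (Mafk) after DEX in FeSO4 mice, and -0.19 to 2.18 (Fos), -0.71 to 0.17 (Fosl2), -0.14 to 0.12 (Jund), -0.77 to 0.45 (Atf3) and -0.20 to 0.12 (Mafk) for the response difference. The cause was not tested.

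Over all genes, a minimum LFC of 1 left 1730 higher and 2040 lower after FeSO4, 1474 and 1362 with DEX, 411 and 473 after DEX in NaCl mice and 277 with a lower response difference. Library size alone gave 2285 and 5829 after FeSO4 and 1776 lower after DEX in NaCl mice, where 1 mouse left out gave 578 to 1259. DESeq2 gave 5 and 5 after DEX in FeSO4 mice and 747 lower response differences. After DEX in FeSO4 mice edgeR gave 99 and 71 with no filter, and 0 to 1 higher with 1 mouse left out. With no filter 683 differences were higher and 776 lower, and with 1 mouse left out 229 to 408 were higher. With the longest transcript as the length, 7 of 28 shares moved by more than 1 SD. They were Fosl2 36.7% and Junb 36.5% and Jund 49.5% in FeSO4/PBS, Junb 7.42% in NaCl/DEX, and Jun 20.0%, Junb 30.2% and Jund 49.8% in FeSO4/DEX mice.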

Other observations

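The test of the difference between the DEX responses of FeSO4 and NaCl mice also passed for several genes of the lists around AP-1. Over all tested genes this difference was higher for 2.99% and lower for 3.20%. Among other bZIP genes it was higher for 2 and lower for 4 of 29, with 0.70 for Nfe2l2 (edgeR FDR 0.017), 0.66 for Cebpa (edgeR FDR 0.026), -2.17 for Bach2 (edgeR FDR 0.032) and -1.10 for Cebpb (edgeR FDR 0.011) on the log2 scale. Among MAP kinase and immediate-early inputs it was higher for 2 and lower for 6 of 33. Gadd45b (-3.07, edgeR FDR 0.013), Gadd45g (-2.87, edgeR FDR 0.044) and Map3k6 (-2.66, edgeR FDR 0.0028), which rose after DEX in NaCl mice, had a smaller response in FeSO4 mice. Gadd45a (2.09, edgeR FDR 0.0087) and Elk3 (1.32, edgeR FDR 0.017), which fell after DEX in NaCl mice, had a higher one. Among the AP-1 targets F3 (1.93, edgeR FDR 0.018) and Cd44 (1.19, edgeR FDR 0.034) were higher and Sphk1 (-2.15, edgeR FDR 0.0066) was lower.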
